A study of Mus musculus with 1307 samples.

Results

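Levels of 10 imprinted growth-control genes were followed across the cell types of the adult mouse heart. The genes were H19, Igf2, Plagl1, Dlk1, Meg3, Cdkn1c, Peg3, Mest, Grb10 and Ndn. They were listed with earlier results of these data known, and were read as the rows of the deposited count table that map to these symbols. All 10 were found among 46517 genes. The table holds 1307 single cells, each sequenced as full-length cDNA (Smart-Seq2) after enzymatic dissociation of the heart and sorting into plates. The groups of mice were ACTA2GFP:CSPG4dsRED double-reporter mice (3 mice, with 368, 245 and 336 cells), ACTA2GFP mice (3 cells under 1 mouse number, 2 labelled male and 1 female), CSPG4dsRED mice (3 cells of 1 mouse) and C57BL/6 mice (352 cells of 3 mice, of which mouse 1 gave 347). In the reporter strains, GFP is driven by the Acta2 promoter and DsRed by the Cspg4 (NG2) promoter. All mice were adults of 8 to 30 weeks with no treatment named in the labels. Double-reporter mouse 3 is labelled female, whereas the series text speaks of male mice. The sort gate is not given in the labels.

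Imprinted genes are transcribed mainly from the chromosome copy inherited from 1 parent, a choice set by DNA methylation laid down in the egg or the sperm. Many of them act on fetal growth. As a rule the paternally expressed ones (Igf2, Plagl1, Dlk1, Peg3, Mest, Ndn) include growth factors and transcription regulators, and the maternally expressed ones (H19, Meg3, Cdkn1c and, in most tissues, Grb10) include growth-restraining genes. Most are abundant in the fetus and fall after birth, and several persist in stem cell and progenitor populations of adult organs. Counts per gene do not separate the parental copies, so imprinting itself was not measured here.

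Positions are from the GENCODE M21 annotation of GRCm38. H19, a long non-coding RNA, lies at chr7:142575529-142578143 on the minus strand, next to Igf2, the insulin-like growth factor 2 gene, at chr7:142650766-142666816 on the same strand. Both genes share enhancers, and an insulator between them decides in each parental copy which gene the enhancers reach. Cdkn1c, which encodes the cyclin-dependent kinase inhibitor p57Kip2, lies farther along at chr7:143458339-143461050 (minus strand). Peg3, a zinc finger transcription factor gene, is at chr7:6703892-6730431 (minus strand), and Ndn, which encodes the MAGE-family protein necdin, is at chr7:62346569-62350262 (plus strand). Plagl1, also called Zac1, is at chr10:13060504-13131694 (plus strand) and encodes a zinc finger factor that regulates other imprinted genes in the mouse, H19 and Igf2 among them. Dlk1, which encodes an EGF-repeat transmembrane protein, is at chr12:109452823-109463336, and the non-coding RNA gene Meg3 is at chr12:109541001-109571726, both on the plus strand. Mest, which encodes a hydrolase-fold protein, is at chr6:30723547-30748465 (plus strand), and Grb10, an adaptor that restrains insulin and IGF receptor signalling, is at chr11:11930508-12038683 (minus strand).

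H19 and Mest are also hosts of microRNAs, which are cut from their transcripts, so the level of the host bears on them. The mature microRNAs inside H19 and Mest are printed 5′ to 3′ from RefSeq (GRCm38.p6) with the seed, bases 2 to 8, in capitals. They were not measured as small RNAs here. None of the 9 mature microRNAs found inside 4 of the 10 genes shared a seed with another.
mmu-miR-675-5p (H19, chr7:142577112-142577133, minus strand): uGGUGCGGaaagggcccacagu
mmu-miR-675-3p (H19, chr7:142577078-142577099, minus strand): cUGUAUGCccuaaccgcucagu
mmu-miR-335-5p (Mest, chr6:30741314-30741336, plus strand): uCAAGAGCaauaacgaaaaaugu
mmu-miR-335-3p (Mest, chr6:30741354-30741375, plus strand): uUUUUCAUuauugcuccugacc

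Promoters, taken as 250 bases before to 50 after a RefSeq transcript start, were found for 8 of the 10 genes, 15 in all. Those of the 3 genes that stood highest in endocardial cells together and that have a RefSeq promoter (Plagl1, Igf2 and Peg3) are printed, with every CG pair in capitals because CG pairs are where the methylation of imprinted promoters sits. The Plagl1 promoter held 26 CG pairs, more than 83.1% of the 32851 promoters of the table had. The Igf2 promoter shown is the most CG-rich of its 4, with 24 CG pairs against 7, 14 and 2 in the other three, and the Peg3 promoter held 13. The median promoter held 7.
Plagl1 promoter (chr10:13090582-13090881, plus strand): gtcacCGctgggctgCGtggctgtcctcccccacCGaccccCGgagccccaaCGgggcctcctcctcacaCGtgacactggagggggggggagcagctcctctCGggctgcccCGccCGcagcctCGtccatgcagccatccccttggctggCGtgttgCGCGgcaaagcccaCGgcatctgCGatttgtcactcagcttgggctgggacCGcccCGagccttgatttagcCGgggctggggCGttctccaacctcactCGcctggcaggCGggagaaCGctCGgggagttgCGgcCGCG
Igf2 promoter 2 (chr7:142658755-142659054, minus strand): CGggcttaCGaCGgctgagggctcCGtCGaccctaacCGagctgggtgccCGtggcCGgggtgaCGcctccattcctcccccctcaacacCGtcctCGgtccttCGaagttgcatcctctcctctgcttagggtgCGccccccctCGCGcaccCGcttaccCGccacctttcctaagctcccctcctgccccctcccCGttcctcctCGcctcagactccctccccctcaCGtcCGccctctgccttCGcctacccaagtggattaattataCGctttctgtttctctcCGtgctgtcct
Peg3 promoter (chr7:6730370-6730669, minus strand): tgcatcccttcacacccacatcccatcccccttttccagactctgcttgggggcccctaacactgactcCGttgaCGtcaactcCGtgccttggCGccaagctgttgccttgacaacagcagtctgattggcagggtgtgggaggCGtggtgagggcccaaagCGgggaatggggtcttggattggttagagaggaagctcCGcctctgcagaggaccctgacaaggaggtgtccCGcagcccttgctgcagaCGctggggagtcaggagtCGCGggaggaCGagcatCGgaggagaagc

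The palindrome GGGGCCCC, a sequence that the Plagl1 protein binds in vitro, was searched for in all promoters. Being its own reverse complement, it reads the same on both strands. It occurred in 354 promoters (1.08%) and, among the 15 promoters of the imprinted genes, in that of Peg3, at bases 50 to 57 of the sequence above. No methylation or binding was measured in this series.

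The 4 mice that gave 10 cells or more each had a separate plate, so mouse and plate cannot be told apart. Total counts per cell ran between 50476 and 811982 with a median of 274702. No 2 cells held identical counts. Cells were grouped by clustering on genes other than the imprinted ones and named from marker lists, so a name with "-like" stands for a cluster. Nearly all endothelial cells came from C57BL/6 mouse 1 and nearly all others from the double-reporter mice, so strain, mouse and plate cannot be told apart in any comparison of endothelial with other cells. Levels are given as CPM, the counts of a gene per 1000000 counts of the summed cells of a class in a mouse. Endocardial cells, which line the heart chambers, were the endothelial cells with at least 200 CPM of Npr3, the natriuretic peptide receptor gene that marks them. There were 52 of them (50 from C57BL/6 mouse 1, 48 in its endocardial-like and 2 in its capillary-type cluster), against 278 other endothelial cells (262 from that mouse), and there were 76 Schwann-like, 352 fibroblast-like and 401 mural-like cells. Mural cells are the smooth muscle cells and pericytes around vessels.

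**Figure D1:**
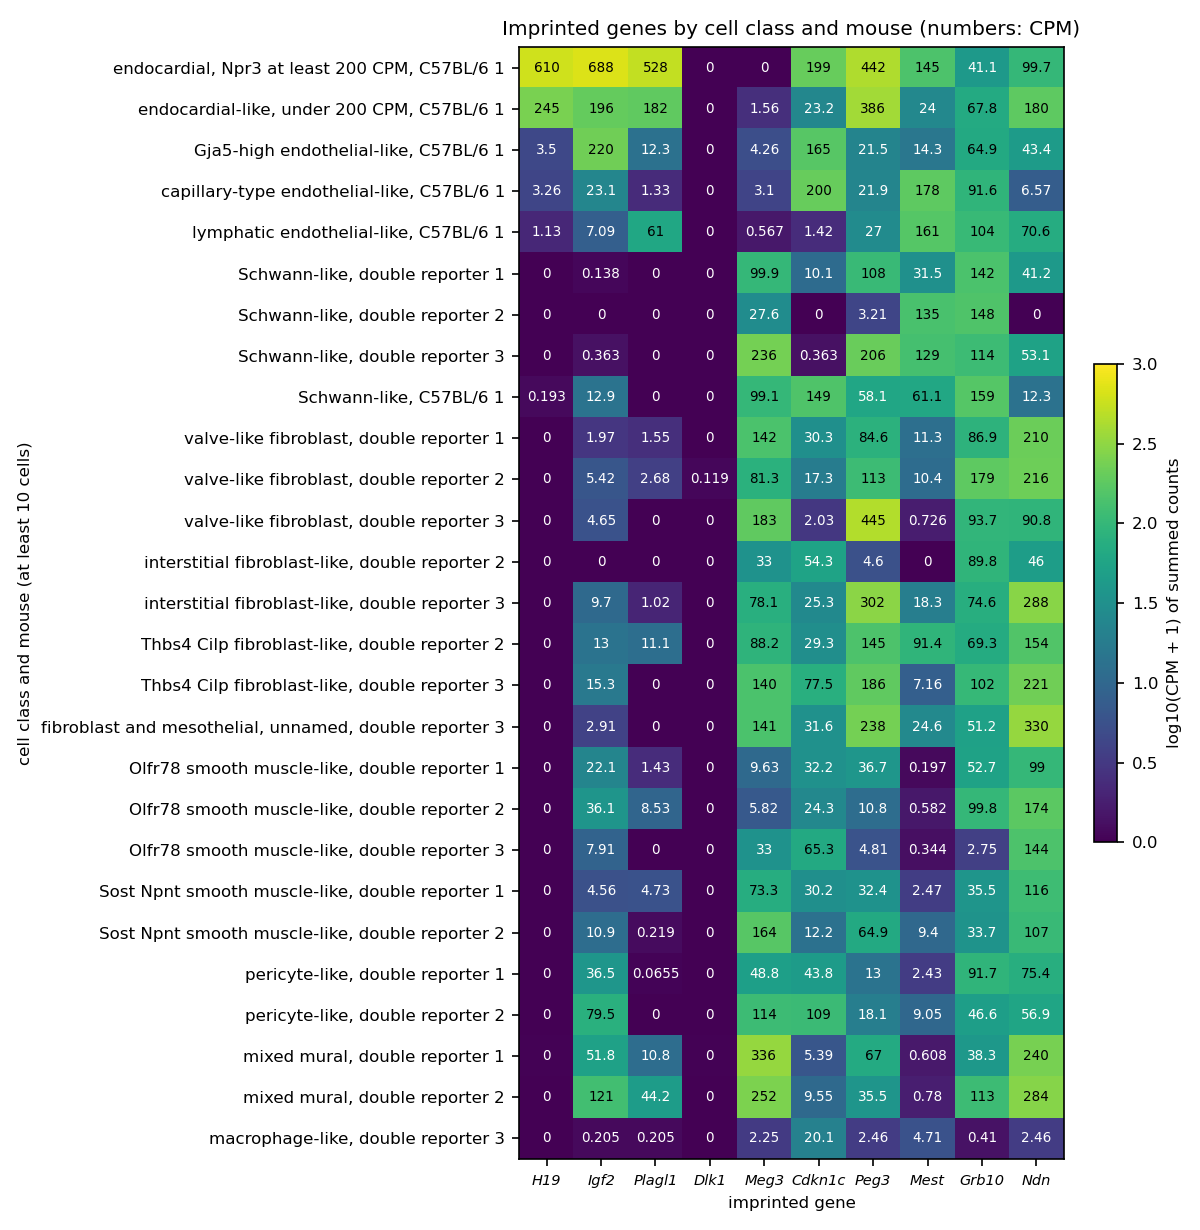
CPM of each imprinted gene (columns) in each cell class of each mouse with at least 10 cells (rows), with the value printed and the colour on a log10(CPM + 1) scale; values under 0.05 CPM are printed as 0. H19 was at 610 CPM in the endocardial cells of C57BL/6 mouse 1 and at 0 or near it in every class outside the endothelium, whereas Grb10 and Ndn were counted in most classes.

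In the heart of C57BL/6 mouse 1, endocardial cells carried 4 of the 10 imprinted genes at more than 4 times the level of the other endothelial cells. These were the neighbours H19 and Igf2 and the transcription factor genes Plagl1 and Peg3. H19 had 609.5 CPM in endocardial cells against 18.8 CPM in the other endothelial cells, which is 32.5-fold higher (95% counting interval 30.8 to 34.3). Plagl1 had 527.8 CPM against 15.4 CPM, 34.3-fold higher (32.4 to 36.5). Peg3, the other transcription factor gene, had 441.5 CPM in endocardial cells against 45.2 CPM in the other endothelial cells, 9.76-fold higher (9.38 to 10.2). Igf2 had 687.8 CPM against 79.1 CPM, 8.69-fold higher (8.43 to 8.96). With 1 mouse there is no replicate and no test. The intervals, like all counting intervals here, cover the counting of reads only and leave out differences between cells and between mice. The reads carry no molecular identifiers, so copies of the same molecule count separately. The intervals are therefore too narrow even for the counting of molecules. Of the 10750 genes with at least 10 CPM in either group, 613 (5.7%) were at least 4-fold higher in endocardial cells, 950 (8.84%) at least 4-fold lower, and 1563 (14.5%) one or the other. Of the imprinted genes, 8 reached 10 CPM, and 4 of these were past 4-fold, all higher. Their median log2 fold was 2.53, and that of all 10750 genes was -0.01. The imprinted genes were listed with earlier results of these data known, so their share past 4-fold and their median are descriptions only. Per kilobase of annotated exon, which allows genes to be compared, the levels in endocardial cells were 248 CPM per kb for H19, 120 for Igf2, 67.5 for Plagl1 and 33.1 for Peg3.

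The other imprinted genes with at least 10 CPM in either group did not reach that fold. Ndn had 99.7 CPM in endocardial cells against 26.1 CPM in the other endothelial cells, 3.83-fold higher and just short of 4-fold. Cdkn1c had 199 CPM against 176 CPM, and Mest 145 CPM against 133 CPM. These 2 were close to level, and which group was higher depended on how the endocardial cells were drawn (log2 fold -0.46 for Cdkn1c and -0.20 for Mest with clusters in place of the Npr3 threshold). Grb10 was lower, at 41.1 CPM in endocardial cells against 84.8 CPM in the other endothelial cells. Meg3 was under 10 CPM in both groups, so the 4-fold rule did not cover it. It had no count in the 50 endocardial cells and 265 counts (3.29 CPM) in the others. Against a floor of 3 counts over the endocardial sum (0.176 CPM), the 2 sums were 18.7-fold apart. The 265 counts came from 15 of the 262 other cells (5.73%), 8 of them at 10 CPM or more. The exact binomial interval of that share (3.24 to 9.27%) overlaps that of the endocardial cells (0 to 7.11%). A lower share of endocardial cells with Meg3 was therefore not read from these values. Dlk1, the paternally expressed partner of Meg3, had no count in any endothelial cell of this mouse.

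**Figure D2:**
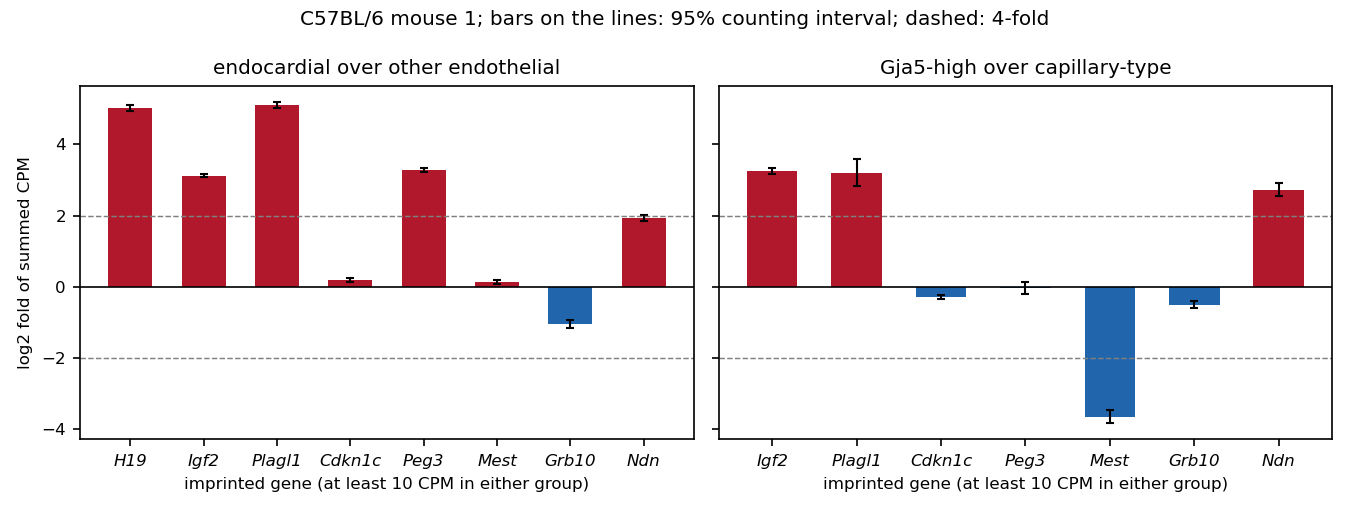
Log2 fold of summed CPM in C57BL/6 mouse 1 for the imprinted genes with at least 10 CPM in either group, endocardial over other endothelial cells on the left and Gja5-high over capillary-type endothelial-like cells on the right, with 95% counting intervals as error bars and dashed lines at 4-fold. H19, Igf2, Plagl1 and Peg3 pass the upper line on the left; Igf2, Plagl1 and Ndn pass the upper line and Mest the lower one on the right.

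The same 4 genes differed in how evenly the endocardial cells carried them. Plagl1 was counted in 48 of the 50 endocardial cells (96.0%) and in 62 of the 262 other endothelial cells (23.7%). Its lowest cell was at 0, its median cell at 467 CPM and its highest at 2029 CPM in the endocardium, against 0, 0 and 796 CPM in the other endothelial cells. Plagl1 was therefore present in nearly every endocardial cell, and 45 of 50 had at least 10 CPM, against 15 of 262. H19 was counted in 35 endocardial cells (70.0%), at 0, 66.7 and 3563 CPM in the lowest, median and highest cell, against 74 other endothelial cells (28.2%) and 0, 0 and 1377 CPM. Peg3 was counted in 62.0% of endocardial cells, at 0, 64.6 and 4249 CPM in the lowest, median and highest cell, against 31.3% and 0, 0 and 3050 CPM. H19 and Peg3 were thus split among endocardial cells, with 15 and 19 of the 50 cells at 0. Igf2 was split as well. It was counted in 68% of endocardial cells and in 55.0% of the others, its median endocardial cell had 3.43 CPM against 2.71 CPM in the other endothelial cells, and 15 of 50 endocardial cells had at least 1000 CPM against 5 of 262. The ranges overlapped for all 4 genes.

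**Figure D3:**
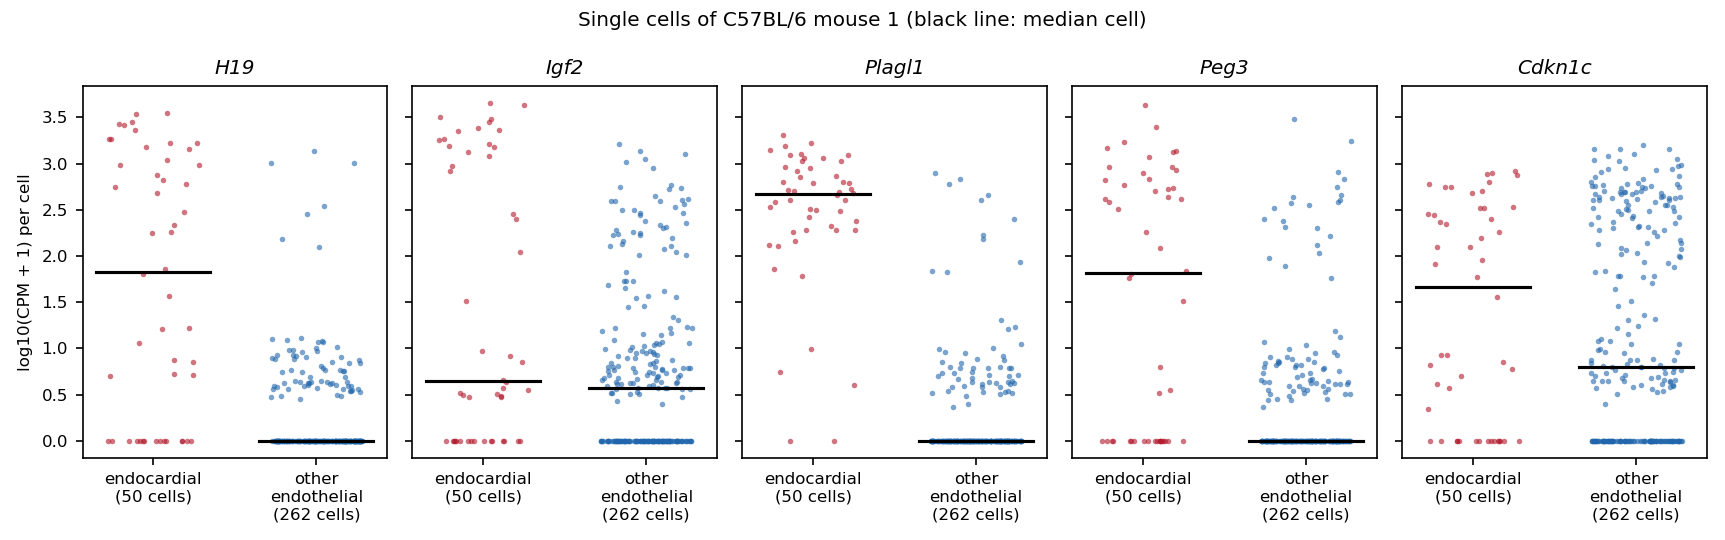
Log10(CPM + 1) of H19, Igf2, Plagl1, Peg3 and Cdkn1c in each of 50 endocardial and 262 other endothelial cells of C57BL/6 mouse 1, 1 point per cell, with the black line at the median cell. The endocardial median stands at 467 CPM for Plagl1 and at 3.43 CPM for Igf2, whose high cells reach 4531 CPM.

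The shares of cells with a count depend on depth, and the endocardial cells were slightly deeper, with a median of 333228 counts per cell against 303338. Thinned to 50000 counts per cell, which left no cell out, the shares were 91.5% of endocardial against 8.74% of other endothelial cells for Plagl1, 59.4% against 8.85% for H19, 56.5% against 13.5% for Peg3 and 46.2% against 30.1% for Igf2. The order of the 2 groups was the same as before thinning for each of the 4. Stray counts were checked in the 24 cells of the same mouse that were not endothelial, whose median depth was 354177 counts. H19 had a count in 2 of them (8.33%), with none at 10 CPM, and Plagl1 in 1 of them. In the double-reporter mice, 1 of 936 non-endothelial cells had an H19 count (0.107%, median depth 261523). Igf2 had a count in 7 of the 24 (29.2%). Most H19-positive other endothelial cells, 61 of 74, held under 10 CPM. The interval of the H19 share in the 24 cells (1.03 to 27% by the exact binomial method) overlaps that in the other endothelial cells (22.9 to 34.1%), so expression of H19 in these low cells was not read from their share.

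H19 and Igf2 often shared a cell in the endocardium. At 10 CPM or more, 19 endocardial cells had both, which is 90.5% of the 21 cells with Igf2 and 63.3% of the 30 cells with H19. Among the other endothelial cells, 7 had both, which is 10% of the 70 cells with Igf2 and 53.8% of the 13 with H19. Cells with Igf2 and no H19 were therefore common in the other endothelium and few in the endocardium. Counting H19, Igf2, Plagl1 and Peg3 together, 13 endocardial cells had all 4 at 10 CPM or more, 12 had 3, 13 had 2, 10 had 1 and 2 had none. Cells of 1 heart share their library and depth, so these counts describe that heart.

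The endocardial group rests on the Npr3 threshold, which was set at 200 CPM. The nearest cells inside it had 206, 210 and 232 CPM of Npr3, with 307, 188 and 0 CPM of Plagl1. The nearest cells outside had 176, 108 and 90.3 CPM of Npr3, with 406, 3.28 and 67.7 CPM of Plagl1. A cell just outside was thus richer in Plagl1 than those just inside, and it also had 1377 CPM of H19, 1122 CPM of Igf2 and 3050 CPM of Peg3, the highest H19 and Peg3 values among the other endothelial cells. In the endocardial-like cluster of this mouse, 17 cells lay under the threshold. Their levels were 245 CPM for H19, 196 CPM for Igf2, 182 CPM for Plagl1 and 386 CPM for Peg3. They held 1259 of the 1511 H19 counts of the other endothelial group. With the clusters in place of the threshold, the H19 log2 fold was 7.35 instead of 5.02, that of Plagl1 6.86 instead of 5.10, that of Peg3 4.34 instead of 3.29, and that of Ndn 2.98 instead of 1.94, past 4-fold.

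The label endocardial was checked against markers. The list of 10 endocardial markers includes Npr3 (819 against 2.9 CPM), which the threshold fixed. Of the other 9, 8 had at least 10 CPM in endocardial and 7 in other endothelial cells, among them Plvap (2268 against 153 CPM) and Cytl1 (1126 against 138 CPM), and Hapln1 was at 0 in both. In the endocardial-like cluster 7 of the 10, Npr3 included, were raised, with at least 100 CPM and 2 times the mean of all clusters. Foxc1, Nfatc1 and Hapln1 were not, and Nfatc1 was raised in the lymphatic cluster. All 10 endothelial markers had at least 10 CPM in endocardial cells, summing to 8630 CPM against 11166 CPM in the other endothelial cells. Fibroblast markers also moved with the group, with a summed 2605 CPM in endocardial against 385 CPM in other endothelial cells and 6 of 10 at 10 CPM or more in each. This sum was mostly the matrix proteoglycan genes Dcn (1759 against 134 CPM) and Lum (619 against 64.2 CPM). Pi16 (105 against 116 CPM), Col1a2 (62 against 25.3 CPM), Mfap5 (31.7 against 8.3 CPM) and Col3a1 (28.3 against 16.3 CPM) were the others at 10 CPM or more in endocardial cells. Pdgfra (0.6 against 10.6 CPM), Col1a1 (0.1 against 4.9 CPM) and Dpt (0.1 against 2.3 CPM) were under 1 CPM there, and Tcf21 was at 0 against 2.1 CPM. The 9 valve-like fibroblast markers summed to 774 CPM in endocardial against 183 CPM in other endothelial cells, mostly the matrix gene Comp (738 against 15.4 CPM), and 5 of them were at 0 in endocardial cells. The 9 interstitial fibroblast markers summed to 176 CPM against 464 CPM. Markers shared by mural cells summed to 538 CPM in endocardial against 1972 CPM in other endothelial cells. Smooth muscle markers (262 against 924 CPM) and cardiomyocyte markers (171 against 1065 CPM) were lower too. Lymphatic endothelial markers were higher, at a summed 430 against 25.3 CPM, mostly Lyve1 (373 against 12.7 CPM). Pericyte markers summed to 625 against 604 CPM, with Colec11 the highest in endocardial cells at 397 CPM. What part the other cell types' RNA has in the imprinted gene levels was not tested.

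Igf2 acts through the IGF receptors, is held by binding proteins and is cleared by Igf2r, so the rest of that pathway was read in the same cells. Of 21 pathway genes, 12 reached 10 CPM, 3 were at least 4-fold higher in endocardial cells and 3 at least 4-fold lower. The binding protein genes were divided. Higher were Igfbp5 (894 against 66.4 CPM), Igfbp4 (1485 against 237 CPM) and Igfbp6 (280 against 29.7 CPM), and lower were Igfbp3 (12.4 against 348 CPM) and Igfbp7 (236 against 1140 CPM). Igf1, the other ligand, had 0.12 CPM in endocardial cells against 12.3 CPM in the other endothelial cells. The signalling receptor gene Igf1r had 36.99 CPM against 15.03 CPM and the clearance receptor gene Igf2r 100 CPM against 58.1 CPM, both short of 4-fold. Of 45 other imprinted genes, 26 reached 10 CPM. Dcn, also 1 of the fibroblast markers above, was at least 4-fold higher in endocardial cells and Inpp5f (4.16 against 28.4 CPM) lower. The median log2 fold was 0.56. Of 24 genes of cell cycle exit and entry, 18 reached 10 CPM and 3 were at least 4-fold lower in endocardial cells. They were the kinase inhibitor gene Cdkn1a (31.7 against 146 CPM), the pocket protein gene Rbl1 (0 counts against 17.4 CPM) and the topoisomerase gene Top2a (0.29 against 11.5 CPM).

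Within the remaining endothelium of C57BL/6 mouse 1, imprinted genes divided a cluster high in Gja5, the gap junction gene of arterial endothelium, from the capillary-type cluster. The pair was chosen after its values were seen and has no replicate and no test. Igf2 had 220 CPM in the 53 Gja5-high cells against 23.1 CPM in the 194 capillary-type cells, 9.52-fold higher (95% counting interval 8.95 to 10.1), and 35 of 53 cells against 29 of 194 had at least 10 CPM. Mest went the other way, with 14.3 CPM in Gja5-high cells against 178 CPM in capillary-type cells, and with 7 of 53 against 65 of 194 cells at 10 CPM or more. Mest is 1 of 585 genes (5.51% of 10613) at least 4-fold lower in the Gja5-high cells, and 624 (5.88%) were at least 4-fold higher. Ndn had 43.4 CPM against 6.57 CPM. Plagl1 had 12.3 CPM against 1.33 CPM, but 1 cell held 87.6% of its counts in the Gja5-high cluster. H19 did not follow Igf2 here, with 3.50 CPM in Gja5-high cells against 3.26 CPM in capillary-type cells, and 1 of the 35 Gja5-high cells with Igf2 also had H19 at 10 CPM or more. Cdkn1c (165 against 200 CPM), Peg3 (21.5 against 21.9 CPM) and Grb10 (64.9 against 91.6 CPM) were within 4-fold. Of the IGF pathway, the binding protein gene Igfbp4 (418 against 60.1 CPM), the protease gene Htra1 (344 against 62.3 CPM) and the receptor substrate gene Irs1 (13.8 against 0.19 CPM) were higher in Gja5-high cells, and Igf1 (1.69 against 15.4 CPM) was lower. Markers shared by mural cells summed to 4452 CPM in Gja5-high against 1307 CPM in capillary-type cells, and smooth muscle markers to 2506 CPM against 468 CPM. Mural-like clusters themselves carried Igf2, as given further on, and what part mural RNA has in these levels was not tested.

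**Figure D4:**
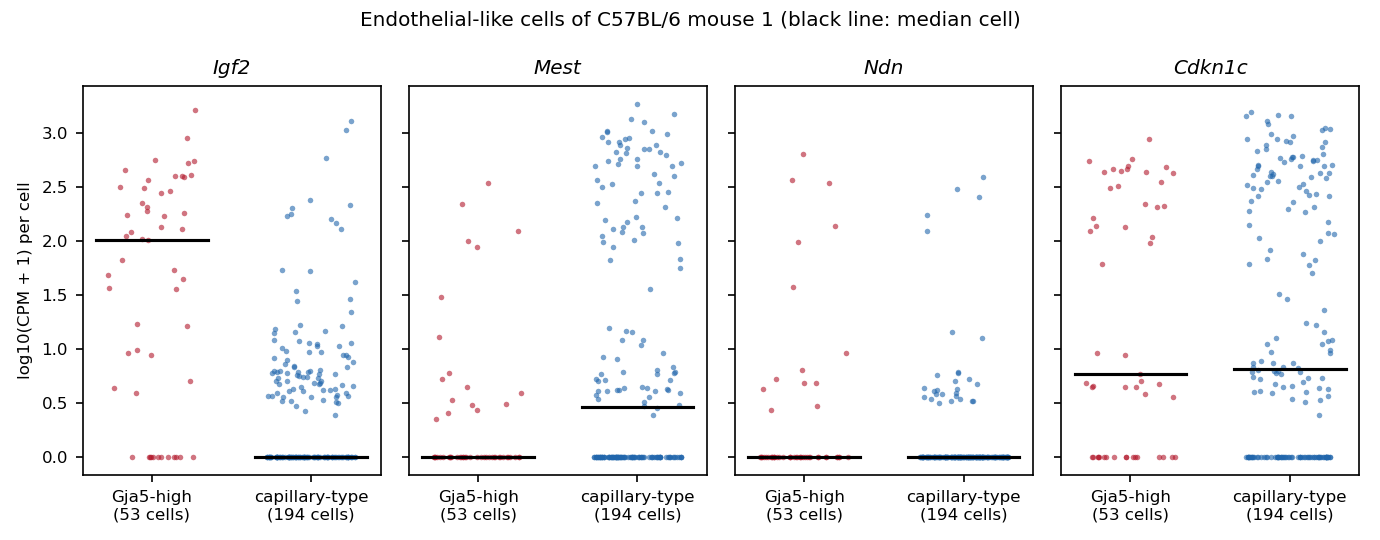
Log10(CPM + 1) of Igf2, Mest, Ndn and Cdkn1c in each of 53 Gja5-high and 194 capillary-type endothelial-like cells of C57BL/6 mouse 1, 1 point per cell, with the black line at the median cell. Igf2 reached 10 CPM in 35 of 53 and 29 of 194 cells, and Mest in 7 of 53 and 65 of 194.

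Across all classes with at least 10 cells in a mouse, each imprinted gene had a pattern of its own. H19 was endothelial. Its level was 541 CPM in the endocardial-like cluster, between 1.13 and 3.50 CPM in the other 3 endothelial-like clusters, and at most 0.193 CPM elsewhere, where no class of a mouse held more than 1 count. Igf2 was next highest, after the endocardial-like (591 CPM) and Gja5-high (220 CPM) clusters, in the mixed mural cluster, which joins smooth muscle and pericyte markers, at 51.8 and 121 CPM in double-reporter mice 1 and 2. The pericyte-like cluster followed, with 36.5 and 79.5 CPM in those mice, a range that overlaps the mixed mural one. The fibroblast-like and Schwann-like values of Igf2 went no higher than 15.3 CPM. Plagl1 after the endocardial-like cluster (461 CPM) was highest in the 11 lymphatic endothelial-like cells (61 CPM), where 1 cell held 99.1% of the counts, and had no count in any of the 4 Schwann-like sums.

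Meg3 and Ndn were spread over several cell types. Meg3 was highest in the mixed mural cluster, at 336 and 252 CPM in double-reporter mice 1 and 2, above every other class sum. The next classes overlapped in range. An unnamed cluster of fibroblast and mesothelial markers had 141 CPM in mouse 3, and the Thbs4 Cilp fibroblast-like cluster had 88.2 and 140 CPM in mice 2 and 3. The others were the valve-like fibroblasts (142, 81.3 and 183 CPM in double-reporter mice 1, 2 and 3), the Schwann-like cells (99.9, 27.6 and 236 CPM, and 99.1 CPM in C57BL/6 mouse 1) and the Sost Npnt smooth muscle-like cluster (73.3 and 164 CPM in mice 1 and 2). The other smooth muscle-like cluster, marked by Olfr78, had 9.63, 5.82 and 33.0 CPM, with 93.8% of the mouse 3 counts in 1 cell. Meg3 was under 5 CPM in every endothelial-like cluster and 2.25 CPM in macrophage-like cells. Meg3 overlaps the antisense gene Gm26906 over 1228 bases, and the counting strand is not given in the sources used here, so their reads may be mixed. Ndn was highest in the unnamed cluster (330 CPM, mouse 3) and in the mixed mural cluster (240 and 284 CPM). The valve-like fibroblasts had 210, 216 and 90.8 CPM of Ndn, and the endocardial-like cluster had 122 CPM. Among its lower values were those of Schwann-like cells (41.2, 0 and 53.1 CPM, and 12.3 CPM in C57BL/6 mouse 1), capillary-type cells (6.57 CPM) and macrophage-like cells (2.46 CPM). The Gja5-high value of Ndn, given above, fell within their range.

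Peg3 was high in fibroblasts as well as in the endocardium, and it varied widely between mice. The valve-like fibroblasts had 84.6, 113 and 445 CPM in double-reporter mice 1, 2 and 3, and the interstitial fibroblast-like cells had 4.60 and 302 CPM in mice 2 and 3. Peg3 was thus highest in mouse 3 in both, though the mouse 2 interstitial sum holds 10 cells. Mouse 3 is also the only double-reporter mouse labelled female, so mouse and sex cannot be told apart here. The Thbs4 Cilp fibroblast-like cluster had 145 and 186 CPM in mice 2 and 3, inside those ranges. Cdkn1c was highest in the endothelium of C57BL/6 mouse 1, at 200, 165 and 139 CPM in the capillary-type, Gja5-high and endocardial-like clusters, and at 1.42 CPM in the lymphatic cells. In Schwann-like cells Cdkn1c had 149 CPM in C57BL/6 mouse 1 against 10.1, 0 and 0.363 CPM in the double-reporter mice. Cdkn1c had a count in 19 of 24 non-endothelial cells of C57BL/6 mouse 1 (79.2%) and in 185 of 936 of the double-reporter mice (19.8%). These pools differ in cell types, with 12 of the 24 cells Schwann-like. What part plate, mouse or strain has in the Cdkn1c levels was not tested. Grb10 was counted in every class. It was highest in the Schwann-like cells (142, 148 and 114 CPM, and 159 CPM in C57BL/6 mouse 1), a range that overlaps the valve-like fibroblasts (86.9, 179 and 93.7 CPM), and it was 0.41 CPM in macrophage-like cells. Mest was over 100 CPM in the capillary-type (178 CPM), lymphatic (161 CPM) and endocardial-like (121 CPM) clusters and in 2 of 4 Schwann-like sums, and under 10 CPM in every mural-like cluster. Dlk1 had 5 counts in 3 cells of the whole table.

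Schwann cells wrap and support the nerve fibres of the heart. Compared with mural-like cells of the same 3 double-reporter mice, they carried far more Mest, and no other imprinted gene passed the test. Mest had 31.5, 135 and 129 CPM in Schwann-like cells against 1.29, 3.11 and 2.69 CPM in mural-like cells of mice 1, 2 and 3. Every Schwann-like sum was above every mural-like one. The means were 98.5 ± 58.1 CPM and 2.36 ± 0.95 CPM (SD, n = 3 mice each), and the log2 change was 5.24 (SE 0.758, adjusted p = 0.0183, edgeR quasi-likelihood test with mouse as a block, higher in 3 of 3 mice). The test called 325 of 13440 genes higher in Schwann-like cells (2.42%) and 337 lower (2.51%), 4.93% in all, with a median log2 change of -0.47 over all genes. Mest rests on few cells. It was counted in 6 of 34, 4 of 12 and 7 of 18 Schwann-like cells against 15 of 251, 14 of 111 and 2 of 34 mural-like cells. A single cell held 63.7%, 59.0% and 51.8% of the Schwann-like counts, without which the Schwann-like levels were 11.7, 63.2 and 66.8 CPM. Leaving out double-reporter mouse 1, 2 or 3 gave log2 changes of 5.49, 5.10 and 5.07 with adjusted p of 0.0789, 0.11 and 0.0603, and the call was also lost with a stricter cell filter (adjusted p = 0.167), with sums of at least 4 cells (0.23) and without the mixed mural cluster (0.0669). Copg2, which overlaps Mest on the other strand over 912 bases, had 11.6, 79.7 and 27.6 CPM in Schwann-like against 7.16, 12.6 and 25.3 CPM in mural-like cells and did not pass (adjusted p = 0.662). The 12 Schwann-like cells of C57BL/6 mouse 1, outside the test, had 61.1 CPM of Mest.

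Igf2 and Plagl1 were at or near 0 in Schwann-like cells of the double-reporter mice. Igf2 had 0.138, 0 and 0.363 CPM against 30.2, 54.2 and 12.9 CPM in mural-like cells, without overlap, at a log2 change of -7.21 that did not pass (SE 1.86, adjusted p = 0.1). Plagl1 had no count in Schwann-like cells against 4.87, 14.7 and 1.44 CPM in mural-like cells (adjusted p = 0.166). Grb10 had 142, 148 and 114 CPM in Schwann-like against 51.8, 85.0 and 71.4 CPM in mural-like cells (log2 change 1.01, adjusted p = 0.277). Peg3 and Meg3 overlapped between these classes. Median counts per cell were 430108, 127194 and 131341 in Schwann-like cells against 316531, 196419 and 155780 in mural-like cells. Around the imprinted genes, of 16 IGF pathway genes tested 1 was higher in Schwann-like cells and 3 were lower. The protease gene Pappa was higher (log2 change 5.02, adjusted p = 0.00929) and the binding protein genes Igfbp4 (-2.87, 0.0057), Igfbp5 (-5.87, 0.0293) and Igfbp3 (-5.005, 0.0324) were lower by the same edgeR test. Of 17 cell cycle genes the cyclin gene Ccnd2 was lower (24.5 ± 18.5 against 682 ± 119 CPM, SD, n = 3 mice each), and of 30 other imprinted genes Dcn was lower. Dcn is also on the fibroblast marker list used to name clusters.

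**Figure D5:**
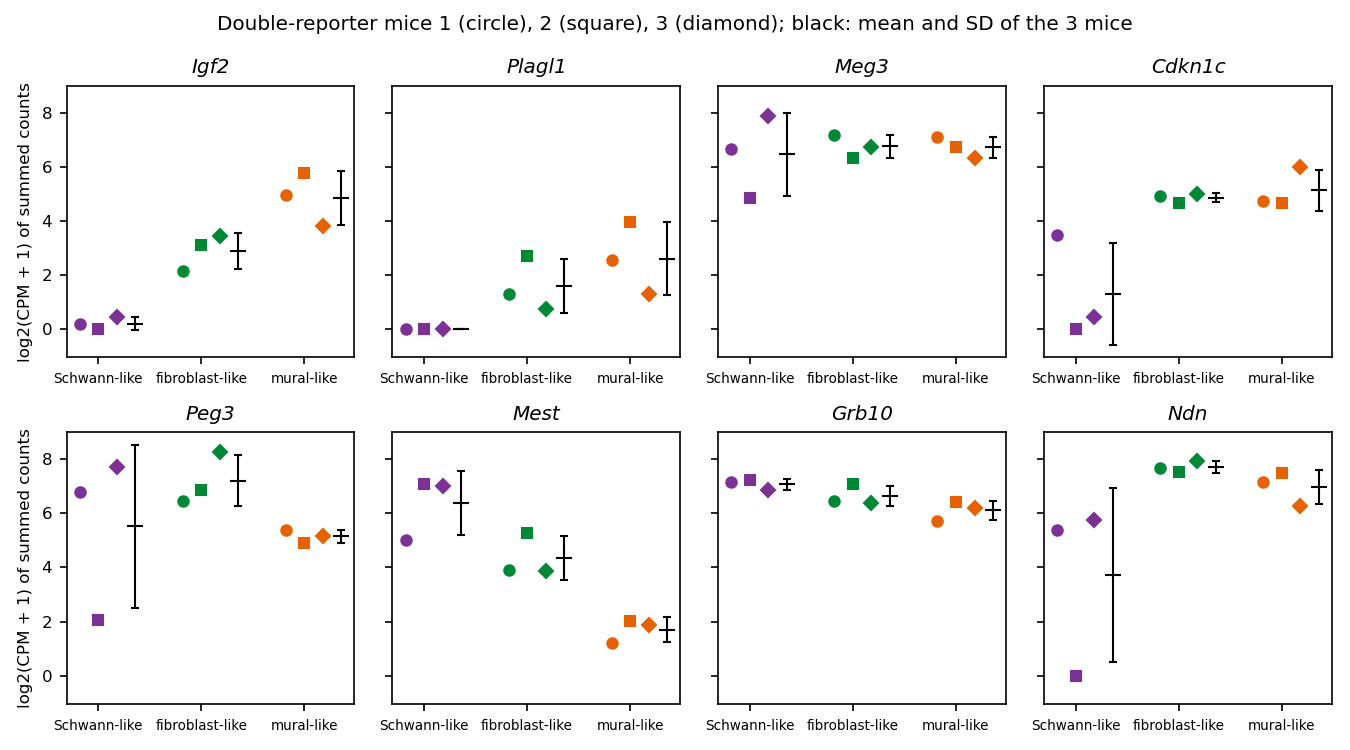
Log2(CPM + 1) of 8 imprinted genes in Schwann-like, fibroblast-like and mural-like cells of double-reporter mice 1 (circle), 2 (square) and 3 (diamond), with the mean and SD of the 3 mice in black. Mest separates Schwann-like from mural-like cells in all 3 mice, whereas the ranges of Meg3 overlap between all 3 classes.

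Between Schwann-like and fibroblast-like cells, none of the 8 imprinted genes tested passed an adjusted p of 0.05 by edgeR. An unadjusted p under 0.05 was found for 4 of them and for 3037 of all 14889 genes. The test called 559 of 14889 genes (3.75%), 256 higher (1.72%) and 303 lower (2.04%), with a median log2 change of -0.57 over all genes. Mest had 31.5, 135 and 129 CPM in Schwann-like against 14.03, 38.03 and 13.4 CPM in fibroblast-like cells (log2 change 2.08, SE 0.668, adjusted p = 0.169), higher in 3 of 3 mice with overlapping ranges. Ndn had 41.2, 0 and 53.1 CPM against 205, 180 and 244 CPM (log2 change -3.44, SE 1.26, adjusted p = 0.187), lower in 3 of 3 mice without overlap. Igf2 (adjusted p = 0.169) and Plagl1 (adjusted p = 0.173) were the others. Among 18 IGF pathway genes, Pappa was higher in Schwann-like cells and Igf1, Igfbp3, Igfbp4 and Igfbp6 were lower. Igf1 averaged 1.74 ± 0.565 CPM in Schwann-like against 599 ± 301 CPM in fibroblast-like cells (SD, n = 3 mice each). Of 33 other imprinted genes, the adaptor gene Gab1 was higher (320 ± 41.5 against 64.7 ± 13.1 CPM) and Dcn lower, and of 18 cell cycle genes the cyclin gene Ccnd1 was higher and Ccnd2 lower. Dcn is a fibroblast marker used to name the fibroblast-like clusters, so its call here follows from the naming. Fibroblast markers summed to 4065, 4532 and 2478 CPM in Schwann-like against 14962, 23268 and 21351 CPM in fibroblast-like cells, and their part in these levels was not tested.

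Fibroblast-like and mural-like cells, the most abundant classes of the double-reporter mice, were compared in the same way. The unnamed fibroblast and mesothelial cluster was not counted as fibroblast-like. Valve-like cells were 70 of 74 fibroblast-like cells in mouse 1, and interstitial cells 113 of 169 in mouse 3. Mixed mural cells were 77 of 251 mural-like cells in mouse 1 and 2 of 34 in mouse 3. Differences between mice in these sums thus cannot be told apart from differences in make-up or, for mouse 3, which is labelled female, in sex. None of 8 imprinted genes passed an adjusted p of 0.05 by edgeR. An unadjusted p under 0.05 was found for 3 of them and for 3044 of all 16344 genes. The test called 713 of 16344 genes (4.36%), 349 higher (2.14%) and 364 lower (2.23%), and 164 and 36 when double-reporter mouse 1 or 2 was left out. Peg3 had 87.3, 115 and 306 CPM in fibroblast-like against 40.6, 28.7 and 34.98 CPM in mural-like cells (log2 change 2.11, SE 0.426, adjusted p = 0.0705). Mest had 14.03, 38.03 and 13.4 CPM against 1.29, 3.11 and 2.69 CPM (log2 change 3.18, SE 0.686, adjusted p = 0.0828). In each, every fibroblast-like sum was above every mural-like one. Igf2 went the other way without overlap, with 3.45, 7.63 and 9.84 CPM in fibroblast-like against 30.2, 54.2 and 12.9 CPM in mural-like cells (log2 change -2.12, SE 0.756, adjusted p = 0.227). Meg3 had nearly level means, at 109 ± 31.2 CPM in fibroblast-like and 106 ± 27.8 CPM in mural-like cells (SD, n = 3 mice each). Of 18 IGF pathway genes, 3 were higher in fibroblast-like cells, namely Igf1 (599 ± 301 against 63.8 ± 32.3 CPM), Igfbp6 (302 ± 268 against 10.5 ± 9.34 CPM) and the protease gene Pappa2. Of 35 other imprinted genes Dcn was higher, but Dcn is a fibroblast marker used to name these clusters, so its call follows from the naming. None of 20 cell cycle genes passed, with 1 at an unadjusted p under 0.05.

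Within the fibroblasts, valve-like were compared with interstitial cells in double-reporter mice 2 and 3, the only mice with enough of both. Here 253 of 14072 genes were called (1.8%), 119 higher (0.846%) and 134 lower (0.952%), with a median log2 change of 0.23 over all genes, and none of the 8 imprinted genes tested passed by edgeR. Meg3 had 81.3 and 183 CPM in valve-like against 33.0 and 78.1 CPM in interstitial cells (log2 change 1.25, SE 0.519, adjusted p = 0.528). Peg3 had 113 and 445 CPM against 4.60 and 302 CPM (log2 change 2.36, SE 0.888, adjusted p = 0.457). Both had an unadjusted p under 0.05, as did 1262 of all 14072 genes, and both were higher in the valve-like cells of 2 of 2 mice. The Peg3 difference depended on the clusters, with a log2 change of 0.21 (adjusted p = 0.946) at Leiden resolution 0.5 and 0.30 (adjusted p = 0.855) with the Thbs4 Cilp cluster counted as interstitial, which gave 0.53 for Meg3 (adjusted p = 0.755). Of 17 IGF pathway genes Igfbp5 (548 ± 35.6 against 19.9 ± 19.2 CPM, SD, n = 2 mice each) and Pappa2 were higher in valve-like cells and Igfbp6 was lower, and of 18 cell cycle genes Ccnd2 was higher. Calls fell to 5 when the Thbs4 Cilp cluster was counted as interstitial.

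Within the mural cells, smooth muscle-like were compared with pericyte-like cells in double-reporter mice 1 and 2. The test called 324 of 14399 genes (2.25%), 188 higher (1.31%) and 136 lower (0.945%), with a median log2 change of 0.49 over all genes, and none of the 8 imprinted genes tested passed by edgeR. Plagl1 alone had an unadjusted p under 0.05, with 2.98 and 5.98 CPM in smooth muscle-like against 0.0655 and 0 CPM in pericyte-like cells (adjusted p = 0.331). Igf2 had 13.8 and 28.3 CPM in smooth muscle-like against 36.5 and 79.5 CPM in pericyte-like cells, and Cdkn1c 31.2 and 20.6 CPM against 43.8 and 109 CPM. Both were lower in smooth muscle-like cells of 2 of 2 mice without passing (adjusted p = 0.762 and 0.725). In mouse 2, 1 of 13 pericyte-like cells held 99.2% of the Igf2 counts and 79.2% of those of Cdkn1c. Of 17 IGF pathway, 29 other imprinted and 17 cell cycle genes tested, none passed. An unadjusted p under 0.05 was found for 2, 4 and 3 of them. Over all 14399 genes it was found for 2069, a similar share.

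The genes most like each imprinted gene were sought by Pearson correlation of log2(CPM + 1) over 26 class sums of the 4 mice, among 10842 genes. The sums share mice and plates, so the values are descriptions. H19 was most like Adh6b (r = 0.97), A2m (0.96) and Sall1 (0.96), all highest in the endocardial-like cluster. H19 was at 541 CPM in the endocardial-like sum, at most 3.50 CPM in the other endothelial-like sums and at most 0.193 CPM elsewhere. All r values of H19, those with other imprinted genes included, therefore rest mainly on the endocardial-like sum and the few other endothelial-like sums. These sums all came from the same mouse. The r values without the endocardial-like sum were not tested. Plagl1 was most like Gpm6a (0.75), a membrane glycoprotein gene also highest there, and then Nts (0.74) and Pkhd1l1 (0.73), highest in lymphatic cells. Igf2 was most like Colec11 (0.79), Epas1 (0.78) and Ebf1 (0.78), highest in the mixed mural, Gja5-high and pericyte-like clusters. Meg3 was most like its overlapping antisense gene Gm26906 (0.97) and then Mmp23 (0.88) and Col1a1 (0.86), a collagen gene. Ndn was most like Rbms3 (0.88), Gem (0.86) and Crtap (0.85), and Mest most like Fgd5 (0.82), Tnfaip8l1 (0.81) and Ahr (0.79). Grb10 was most like Npdc1 (0.83), Enpp5 (0.83) and Txndc15 (0.83), Peg3 most like Atxn10 (0.77), Cbx5 (0.76) and Me1 (0.75), and Cdkn1c most like Ccdc28b (0.78), Tmem183a (0.75) and Ccrl2 (0.74). Among the imprinted genes themselves, the closest pairs were H19 with Plagl1 (0.68), Igf2 with Plagl1 (0.64), H19 with Igf2 (0.56) and Peg3 with Ndn (0.56), and the least alike was H19 with Meg3 (-0.58).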

How the data were processed

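The measurements were the counts that the authors deposited, whole-number reads per gene and cell. The submitters' processing notes name bcl2fastq, Bowtie, Bowtie2, Subread, featureCounts and the build GRCm38 (mm10), without versions. Strand setting and annotation are not given in the sources used here. Every count column matched 1 labelled cell. All 1307 cells passed the minimum of 10000 counts and 500 genes. The imprinted genes, the other gene lists and the markers were chosen with earlier results of these data known. Clustering (scanpy 1.11.5, 2000 variable genes, 30 components, 15 neighbours, Leiden resolution 1) left out 271 genes, the listed ones among them. Scrublet called 2, 1, 3 and 1 doublets in double-reporter mice 1 to 3 and C57BL/6 mouse 1, which were kept.

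CPM and 95% exact intervals were computed here from summed counts. Classes were compared by edgeR 4.0.16 (R 4.3.3) quasi-likelihood tests on sums of at least 10 cells per mouse, with the low-count filter filterByExpr, TMM scaling, mouse as a block and Benjamini-Hochberg adjustment over all genes tested at 0.05. Both classes came from the same animals, which is where the pairing comes from; deviations of paired sums correlated at 0.03 to 0.19. H19 and Dlk1 did not pass the low-count filter in any of these tests. Endothelial groups, present in number in 1 mouse, were compared by a 4-fold rule among genes with at least 10 CPM. On simulated data, changes of log2 size 5 were recovered in 99, 95, 80, 86 and 82 of 100 genes in fibroblast-like against mural-like, Schwann-like against fibroblast-like, Schwann-like against mural-like, valve-like against interstitial and smooth muscle-like against pericyte-like cells, on 16344, 14889, 13440, 14072 and 14399 genes, and changes of log2 size 3 in 86, 56, 49, 42 and 40 of 100. The changed genes were drawn only from those above a set mean level, and no difference between mice was simulated. Recovery for genes of low level, such as Plagl1 in these classes, is therefore not covered. Named besides the imprinted genes were up to 4 called genes per list and comparison, those with the smallest adjusted p, and the 3 most correlated genes for each imprinted gene that reached 50 CPM in a sum. Igfbp3 in Schwann-like against fibroblast-like cells, Igf1r, Igf2r, Copg2 and the marker genes were named after their values were seen. Alternatives were DESeq2 1.42.0, limma 3.58.1, other scalings, filters and clusterings, and left-out mice.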

Additional observations from a re-analysis of the deposited data

Results flagged for a closer look

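A few endothelial cells of the double-reporter mice lay outside every comparison and still held counts of the endocardial imprinted genes above the 3 counts that a count of 0 allows. The single endocardial-like cell of double-reporter mouse 1 had 114 counts of H19, 70 of Plagl1, 19 of Peg3 and 0 of Igf2 among 296771. The 3 endocardial-like cells of double-reporter mouse 2, all under the Npr3 threshold, had 176 counts of Plagl1 together, 123, 53 and 0 by cell. The cell without Plagl1 held all 41 counts of Igf2 and the only count of Peg3, and H19 was at 0 in all 3. These are other mice, another strain and other plates than the 50 endocardial cells described above, and they are too few for a test.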

How the results depend on the processing

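The number of called genes depended on the tool. DESeq2 called 2683, 2848, 2672, 955 and 1143 genes in fibroblast-like against mural-like, Schwann-like against fibroblast-like, Schwann-like against mural-like, valve-like against interstitial and smooth muscle-like against pericyte-like cells, against 713, 559, 662, 253 and 324 by edgeR with the mouse as a block. Without the replicate block the last 4 gave 1882, 1553, 91 and 96, and the first 961. Equal weight per cell with limma gave 1228 (271 higher, 957 lower) and 1214 (331 higher, 883 lower) for Schwann-like against fibroblast-like and mural-like cells, where edgeR had 256 and 325 higher, and 0 for valve-like against interstitial and for smooth muscle-like against pericyte-like cells, with 1398 and 2086 genes at an unadjusted p under 0.05. The stricter cell filter gave 225 and 279 in the 2 Schwann-like comparisons. Sums of at least 4 cells gave 367 for Schwann-like against mural-like and 191 for smooth muscle-like against pericyte-like cells. Testing all genes without a low-count filter gave 546 and 639 for the last 2 comparisons, and Leiden resolution 0.5 gave 26 and 490. Counting the Thbs4 Cilp cluster as interstitial, an alternative chosen after seeing the data, gave 5. Leaving out 1 mouse gave 36 to 684 (fibroblast-like against mural-like), 242 to 515 (Schwann-like against fibroblast-like) and 275 to 642 genes (Schwann-like against mural-like). The causes were not tested. For the imprinted genes with an unadjusted p under 0.05, the refits gave 156 log2 changes, each of 1 gene in 1 comparison under 1 alternative. None of these changed direction. A call was gained in 19 and lost in 6, all of Mest in Schwann-like against mural-like cells. Peg3 in fibroblast-like against mural-like cells passed by edgeR without the block (adjusted p = 0.0329), by DESeq2, at Leiden resolution 0.5 and without the mixed mural cluster. Mest passed there by DESeq2, at Leiden resolution 0.5 and by limma (adjusted p of 7.69e-06, 0.0442 and 0.0312), and Igf2 by DESeq2 and without double-reporter mouse 3 (0.0110 and 0.0448). In Schwann-like against mural-like cells Igf2 passed without the block, by DESeq2 and by limma (0.0194, 1.34e-05 and 0.0193). In Schwann-like against fibroblast-like cells Igf2 passed under the same 3 (0.0396, 0.0168 and 0.0478), and Mest and Ndn by DESeq2 (0.0162 and 0.0144). Peg3 in valve-like against interstitial cells passed by DESeq2 (0.0108) and without the low-count filter (0.000135). Endocardial log2 folds ran over 4.80 to 7.35 for H19, 4.54 to 6.86 for Plagl1, 2.83 to 4.34 for Peg3 and 3.00 to 3.43 for Igf2, and the number of genes past 4-fold over 1553 to 1778. The stricter filter for smooth muscle-like against pericyte-like cells left too few mice, and comparisons with 2 mice were not refitted without 1.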

Other observations

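Outside the endocardial-like cells, 2 of the 3 capillary-type cells of double-reporter mouse 1 held 275 and 28 counts of H19. Npr3 was at 0 in both. The 275 counts are 431 CPM, above the 384 CPM of the endocardial-like cell of that mouse. This cell also had 17 counts of Igf2 and none of Plagl1 or Peg3. The cell with 28 counts also had 14 of Igf2, 11 of Plagl1 and 14 of Peg3. The remaining capillary-type cell had no count of these genes. The 1 endocardial-like cell of the CSPG4dsRED mouse had 37 counts of Npr3 among 56092, or 660 CPM, above the threshold. It had 1 count of H19 and none of Plagl1, Igf2 or Peg3.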
